A study of Mus musculus with 8 samples.

Results

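Genes with a single polyadenylation site (PAS) in the 3′-most exon were examined in NIH3T3 cells, an established mouse embryonic fibroblast line, before arsenite stress, at its end and during recovery. A gene was taken as a single-PAS gene when exactly 1 PAS, of the type 3′-most exon, was listed for it in each of the 3 deposited PAS tables, which compare stressed or recovering cells with untreated cells. This gave 3413 single-PAS genes, or 34.6% of the 9875 genes present in all 3 tables (10690 genes were in at least 1 table). The comparison group was the 4909 genes with more than 1 PAS in every table (multi-PAS genes). The other 1553 genes were in neither group: 794 had 1 PAS of another type in all tables, and 759 had 1 PAS in some tables only.

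NT cells were proliferating and untreated, AS cells were exposed to 250 µM sodium arsenite for 1 h, and RC4 and RC8 cells were kept for 4 or 8 h in normal medium after the same exposure. All cells were grown in DMEM with calf serum, penicillin and streptomycin, and total RNA was used. Each condition was measured in 1 QuantSeq FWD library, in which reads start near the 3′ end of polyadenylated RNA, so no replicate error exists, no test was made, and every difference is a difference between libraries. In a bulk culture, fewer cells of a kind and less RNA per cell cannot be told apart. All 8 fibroblast markers examined were listed, at 80.1 to 10272 RPM in NT (reads scaled to a library of 1000000 reads on genes), among them the single-PAS genes Vim, S100a4 and Pdgfrb. None of the 4 epithelial, 3 leukocyte and 2 endothelial markers was listed, in tables that hold genes with 50 reads or more per library.

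The 3′ end of an mRNA is made by cleavage of the nascent transcript and addition of a poly(A) tail. The cleavage and polyadenylation specificity factor recognises a hexamer, usually AATAAA in the DNA strand of the gene, a short distance before the cleavage site. A gene with several PASs can end its mRNA at different places and so vary its 3′UTR, or lose coding exons when the site is in an intron. A gene with 1 listed PAS offers no such choice among listed sites, and its level is what can be compared between conditions. A PAS was listed when the authors' method assigned it enough of the gene's reads, so that unlisted sites of these genes may exist. In the paper, far fewer of the detected genes were annotated with only 1 PAS in the database PolyA_DB. Most single-PAS genes here are thus likely to have further annotated sites that were not listed. Arsenite is an oxidative and protein-damaging stress that halts translation, gathers mRNAs in stress granules and activates the heat shock, antioxidant and integrated stress responses.

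The sequences below are the last 30 nt up to and including the PAS, on the strand of the gene in the mm9 build, and are shown because they cover the kinds of hexamer seen at single PASs. Capitals mark the hexamer. The positions are chr17:35093376-35093405 for Hspa1b (minus strand), chr8:77624460-77624489 for Hmox1, chr3:90409935-90409964 for S100a4, chr7:129313360-129313389 for Plk1, chr4:116372091-116372120 for Prdx1, chr8:87185271-87185300 for Ier2 (minus strand) and chr12:76731905-76731934 for Wdr89 (minus strand).
Hspa1b: ttaaatattcaaAATAAAaggttacaagta
Hmox1: gaaatAATAAAtggcattatctaacagtca
S100a4: gagcaaattcAATAAAaggttttgaaacta
Plk1: tttatatatATTAAAatgtgtacatctctc
Prdx1: taagtatctATTAAAcgtgaattctgagaa
Ier2: ttgtttaattagcaactacctggagtttta
Wdr89: gtctttttatgtatcttgaaaaaaaaaaaa
The PASs of Hspa1b, Hmox1 and S100a4 followed AATAAA, and those of Plk1 and Prdx1 the second most common hexamer, ATTAAA. In Ier2 and Wdr89 neither these nor the other common 1-base variants lay in the 30 nt shown. The PAS of Wdr89 lay in a run of genomic A, and the 240 nt before it matched the ribosomal protein gene Rplp2 at 99.6% identity, so its reads cannot be told apart from those of Rplp2.

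AATAAA was present in the 40 nt before the PAS in 59.4% of single-PAS genes (95% Wilson interval 57.7 to 61.0%, n = 3413). It was present in 44.1% (42.7 to 45.5%, n = 4702) of the most used PASs of multi-PAS genes, chosen among the PASs of the 3′-most exon only. In some of these genes a PAS of another type may have had a larger share of reads. Among all PASs of the 3′-most exon of multi-PAS genes, 52.2% (50.7 to 53.6%, n = 4688) of the last ones and 24.9% (23.9 to 25.9%, n = 7649) of the earlier ones had it. Single PASs were thus above each of these sets in AATAAA, nearest to the last PAS of a multi-PAS gene, and the intervals did not overlap. ATTAAA differed little, with 12.8% (11.7 to 13.9%) at single PASs and 12.5% (11.6 to 13.5%) at the most used PASs of multi-PAS genes. No hexamer was found at 16.8% (15.6 to 18.1%) of single PASs, 20.4% (19.3 to 21.6%) of last PASs and 39.8% (38.7 to 40.9%) of earlier PASs. As a background, a window of 40 nt ending 200 nt before the PAS held AATAAA in 0.850% (0.592 to 1.22%) of single-PAS genes. The intervals cover counting error only, and 116 single-PAS genes share their PAS with another listed gene.

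**Figure D1:**
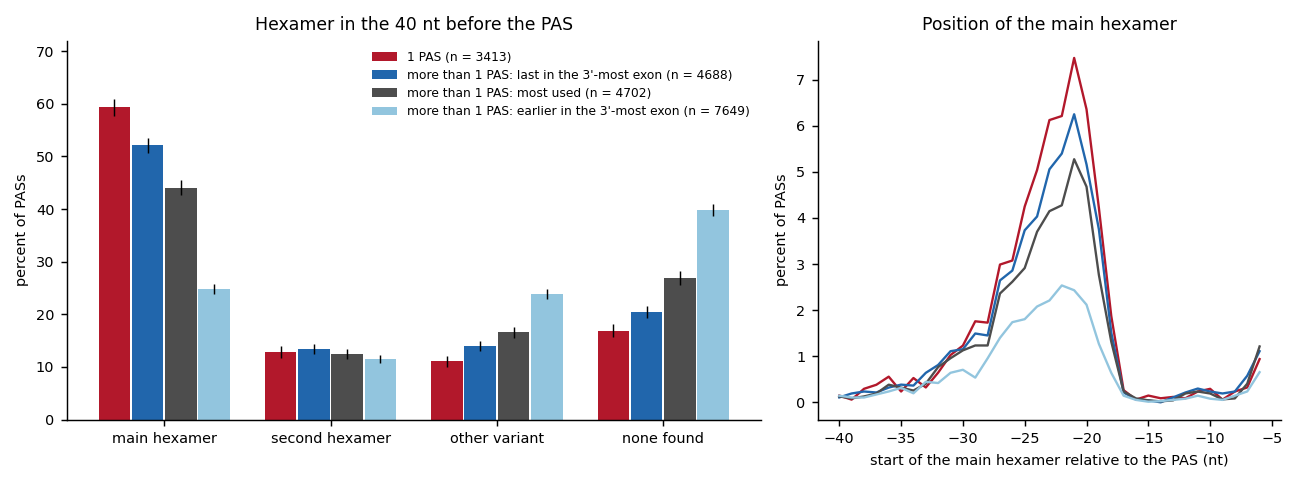
Left, percent of PASs (y axis) whose 40 nt before the cleavage site hold the main hexamer (AATAAA), the second hexamer (ATTAAA), another 1-base variant or none, for single-PAS genes and 3 sets of PASs in multi-PAS genes, with 95% Wilson intervals. Right, percent of PASs with the main hexamer starting at each distance (nt) from the PAS: all 4 sets peak near the same distance, and the main hexamer is found at 59.4% of single PASs against 24.9% of earlier PASs in multi-PAS genes.

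The hexamer lay at the same place in each set, with AATAAA starting a median of 23 nt before the PAS. Base composition before the PAS was also alike, with 36.8% A and 32.4% T at single PASs and 36.4% A and 32.3% T at the most used PASs of multi-PAS genes. After the PAS, single-PAS genes had less A (21.6% against 24.9%) and more G (21.9% against 19.5%) in 40 nt. Last PASs of multi-PAS genes lay between, with 23.6% A and 19.8% G. An A-rich stretch directly after the site, where an oligo(dT) primer could bind within the RNA, was present at 5.45% of single PASs and 8.34% of the most used PASs of multi-PAS genes. It was present at 6.55% of last and 7.27% of earlier PASs of multi-PAS genes. Median log2 changes over NT, defined below, were 0.03 with AATAAA and 0.05 without any hexamer in AS. In RC4 they were -0.08 with AATAAA, -0.09 with ATTAAA, -0.16 with another variant and -0.05 with none, and in RC8 they ran from 0.05 with AATAAA or none to 0.09 with ATTAAA. The share at least 2-fold below NT in RC4 was 9.43% with AATAAA, 8.26% with ATTAAA, 9.55% with another variant and 6.62% with none.

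Most single-PAS genes ended where an annotated transcript ends. Of 3413 names, 3102 (90.9%) were found in the GENCODE annotation of the mm9 genome, and 97.1% of these were protein coding. In 81.7% (80.3 to 83.0%) of the 3084 genes that could be placed, the PAS lay within 50 nt of an annotated transcript end, against 53.1% (51.6 to 54.6%) for the most used PAS of multi-PAS genes. The 3′UTR, counted from the stop codon to the PAS, had a median length of 597 nt (quartiles 269 and 1262) in single-PAS genes and 921 nt (quartiles 378 and 1931) with the most used PAS of multi-PAS genes. The GC content of this 3′UTR was 46.6% and 42.9% (medians), while the coding length was 1272 and 1308 nt and the number of exons 9 in both groups. The AU-rich heptamer TATTTAT, a core of elements that bind decay factors, was present in 20.4% of single-PAS 3′UTRs and in 27.4% of the longer multi-PAS 3′UTRs.

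The level of a gene was its summed read count in RPM on the listed genes, not scaled to gene length because reads lie at the 3′ end. Where 4 RPM values are given in a row, they are those of NT, AS, RC4 and RC8, and the NT value is that of the AS table. Libraries held 22.4 to 23.0 M such reads. The share taken by single-PAS genes was 29.0% before the exposure and 29.8, 27.5 and 28.5% in the AS, RC4 and RC8 libraries. They were less abundant than multi-PAS genes, with a median of 577 against 1054 reads in NT, and made up 51.5% of the genes in the lowest quartile of NT reads and 27.1% in the highest. The PAS had the same position in all 3 tables in 3235 genes (94.8%), and in the other 178 it moved by a median of 41 nt and at most 221 nt.

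The reads of a library were deposited in 2 columns of nearly equal sums, whose meaning the files do not state. They were taken as parts of 1 library because the labels give 1 FWD library per condition. The first condition of each table was taken as NT from the study's methods, and its reads were equal in all 3 tables in 69.5% of single-PAS genes and within 2% in 93.9%. In 23 single-PAS genes in the AS table, 66 in the RC4 table and 25 in the RC8 table, 1 column of a library stood at 0 beside 50 or more reads in the other, so the summed level there may be too low by about 2-fold. This was found after seeing the data, and counts are also given with the empty column filled with the value of the other. Furthermore, 93 single-PAS genes (2.72%) had the 240 nt before the PAS in near-identical form in another coding transcript (at least 95% identity over 150 nt), and their reads are uncertain. Names can mislead as well: 74 single-PAS genes carried names of microRNAs or small nucleolar RNAs. For 51 of them, the 240 nt before the PAS matched a coding transcript of another gene at the same place. That gene was itself listed for 48, for 11 as a single-PAS gene and for 35 as a multi-PAS gene, so the 2 groups can share transcripts. Mir1938, for example, matched Ifrd1 in this way, and Snord37 the elongation factor gene Eef2.

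A change is given as the log2 ratio of the level to NT, relative to the median gene of the table. The median gene itself moved by -0.04, -0.30 and 0.01 (AS, RC4 and RC8) on the log2 scale of RPM. After 1 h of arsenite, single-PAS genes were slightly above and multi-PAS genes slightly below the median gene, with medians of 0.04 (95% interval over genes 0.02 to 0.05) and -0.05 (-0.06 to -0.04). At 4 h of recovery the order was the other way round, with -0.08 (-0.11 to -0.06) and -0.01 (-0.03 to 0.01). At 8 h it was as in AS, with 0.06 (0.04 to 0.07) and -0.04 (-0.05 to -0.03). Without centring on the median gene, the single-PAS median in AS was -0.0048. These intervals describe the spread over genes of 1 pair of libraries, not the error of the condition.

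In AS, 21 single-PAS genes (0.615%) were at least 2-fold above NT and 73 (2.14%) at least 2-fold below, where 0.718% and 2.93% of all genes tested were past the same fold. Among multi-PAS genes 10 (0.204%) were above and 163 (3.32%) below. With empty columns filled, 16 single-PAS genes stayed above and 66 below, but the share of all genes above fell to 0.383%. In RC4, 188 single-PAS genes (5.51%) were above and 301 (8.82%) below, where all genes gave 6.38% above and 6.38% below, and multi-PAS genes gave 274 (5.58%) and 266 (5.42%). Without centring on the median gene the single-PAS counts in RC4 were 98 above and 592 below, and the multi-PAS counts 160 and 602. With empty columns filled, the RC4 count below was 271 (7.94%) against 263 (5.36%) in multi-PAS genes and 5.96% of all genes. In RC8, 105 single-PAS genes (3.08%) were above and 115 (3.37%) below, where all genes gave 2.95% and 3.59%, and multi-PAS genes gave 87 (1.77%) and 164 (3.34%). With empty columns filled, the RC8 counts were 98 (2.87%) and 107 (3.14%), against 2.55% and 3.29% of all genes. The share of all genes is over every gene of a comparison (10452, 10081 and 10441), while genes of both groups had to be listed in all 3. The sets thus differ in more than the number of PASs. With the number of PASs taken from the AS comparison alone, 39 of 4243 single-PAS genes were above NT and 106 below. Among genes listed in all 3, single-PAS genes were above the share of all genes among the RC4 falls and below it among the AS falls. Among the RC4 rises they were below it (5.51%, interval 4.79 to 6.32%), as multi-PAS genes were (5.58%). All 3 comparisons share the NT library.

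**Figure D2:**
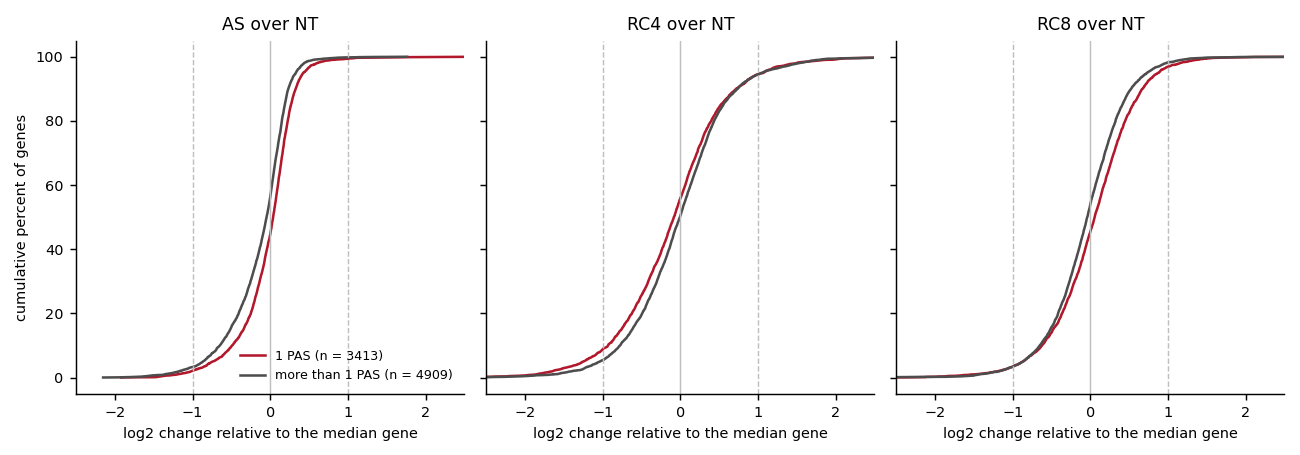
Cumulative percent of genes (y axis) by log2 change over NT relative to the median gene (x axis) in AS, RC4 and RC8, for the 3413 single-PAS and 4909 multi-PAS genes, with dashed lines at 2-fold. The single-PAS curve lies to the right in AS and RC8 and to the left in RC4, where 8.82% of single-PAS and 5.42% of multi-PAS genes are past 2-fold down.

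The spread of single-PAS genes was 0.37, 0.72 and 0.54 (SD of log2 changes over AS, RC4 and RC8), against 0.38, 0.66 and 0.50 in multi-PAS genes. Counting error accounted for an SD of 0.10 to 0.11 in single-PAS genes and of about 0.08 in multi-PAS genes. Since the number of listed PASs rises with reads, both groups were also set side by side within quartiles of NT reads. In AS the median was -0.01 in both groups in the lowest quartile, and 0.09 against 0.01 in the highest. In RC4 the single-PAS median was below the multi-PAS median in the lowest 2 quartiles and in the highest (0.05 against 0.13), but not in the other one (-0.07 against -0.08). In RC4 the share at least 2-fold below NT was 7.64, 10.9, 10.6 and 6.32% of single-PAS genes from the lowest to the highest quartile, and 3.89, 7.16, 5.81 and 4.11% of multi-PAS genes. It was higher in single-PAS genes in each quartile, also with empty columns filled, where the lowest quartile gave 5.06% and 3.24%. Falls in that quartile (50 to 350 reads in NT) are cut short, because a listed gene has 50 reads or more in each library. In RC8 the share at least 2-fold above NT was 5.72% against 3.35% in the lowest quartile but 1.41% against 1.78% in the highest, so that the difference did not run through all read levels.

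Since each gene has 1 listed PAS, 1 length of 3′UTR was assigned to it, apart from the small shifts between tables given above. In AS the median log2 change fell with length, from 0.12 (0.10 to 0.13) in the 751 genes with 3′UTRs of 4 to 269 nt to -0.19 (-0.22 to -0.15) in the 751 genes with 1262 to 9165 nt. Of the longest quartile, 45 genes (5.99%) were at least 2-fold below NT, and of the shortest 2 (0.266%). Over 3002 single-PAS genes, Spearman's rho of the change with 3′UTR length was -0.35, -0.05 and 0.02 for AS, RC4 and RC8 (Pearson's r with log2 length -0.34, -0.04 and 0.02). These values are across genes of the same pair of libraries and carry no test. Coding length gave nearly the same in AS, with a rho of -0.34, and a median of 0.10 in the shortest and -0.17 in the longest quartile. Which of the lengths the change goes with was not tested. In multi-PAS genes, binned by the most used PAS, AS medians ran from 0.08 to -0.25. From the shortest to the longest 3′UTR quartile, 0.777, 1.15, 3.22 and 5.65% of multi-PAS genes were at least 2-fold below NT in AS. The single-PAS shares were 0.266, 0.667, 1.47 and 5.99%, lower in all but the longest quartile.

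**Figure D3:**
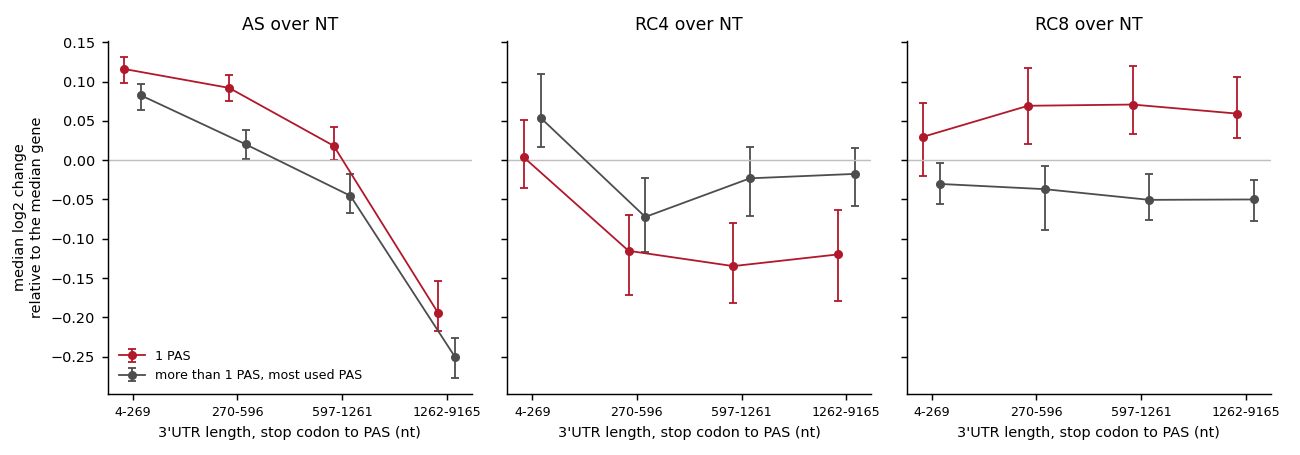
Median log2 change over NT relative to the median gene (y axis) in quartiles of 3′UTR length (x axis, nt from stop codon to PAS) for AS, RC4 and RC8, with 95% order-statistic intervals over genes for single-PAS and multi-PAS genes. In AS both fall with length, in single-PAS genes from 0.12 to -0.19, while in RC8 all single-PAS medians lie between 0.03 and 0.07.

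In RC4 and RC8 the 3′UTR quartiles of single-PAS genes showed no such slope. RC4 medians were 0.0035, -0.12, -0.13 and -0.12 from the shortest to the longest quartile, and RC8 medians 0.03, 0.07, 0.07 and 0.06. The 613 single-PAS genes with TATTTAT in the 3′UTR had a median of -0.10 in AS against 0.06 in the 2389 without it. Of the 613, 484 had 3′UTRs above the median length. The AS medians were 0.06 against 0.10 among shorter 3′UTRs, with overlapping intervals, and -0.17 against -0.03 among longer ones. In RC4, 8.97% of the genes with the heptamer and 4.81% of those without it were at least 2-fold above NT. Genes with the heptamer were also more often at least 2-fold below NT in RC4, at 10.9% against 8.41%. Both RC4 differences had the same direction on each side of the median 3′UTR length. The shares above NT in RC4 were 11.6% against 3.86% among shorter and 8.26% against 6.10% among longer 3′UTRs. Those below NT were 8.53% against 6.92% and 11.6% against 10.4%.

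For every gene list below, the background is the share of all genes past 2-fold. It was 0.718, 6.38 and 2.95% up and 2.93, 6.38 and 3.59% down (AS, RC4 and RC8). Among single-PAS genes, heat shock chaperones, which refold damaged proteins, were the list with the highest median in RC4. All 8 single-PAS members of this list were above the median gene in RC4, 6 of them at least 2-fold, with a list median of 1.75. Hspa1b, a stress-inducible HSP70, had 42.3, 218, 2369 and 90.4 RPM. It was thus already 5.30-fold up at the end of the exposure and 69.0-fold up at 4 h relative to the median gene (log2 changes 2.41, 6.11 and 1.09), the largest rise of any single-PAS gene. No near-identical copy of its 3′ end was found, and its paralogue Hspa1a was not listed. Hspa8, the constitutive HSP70, had 1079, 1450, 3747 and 1391 RPM and was 2-fold up only in RC4 (log2 0.47, 2.1 and 0.36). Bag3, a co-chaperone of HSP70 in selective autophagy, had 164, 183, 564 and 184 RPM. Its level was high only in RC4, and the small heat shock protein gene Hspb8 (287, 315, 815 and 330) followed the same course. Chordc1, an HSP90 co-chaperone, rose in RC4 with a log2 change of 1.68 and Ahsa1, which activates the HSP90 ATPase, with 1.08 (0.78 without centring on the median gene). Ahsa1 kept its level in RC8, at 0.81. Stip1, which links HSP70 and HSP90, reached 0.85 and Hspbp1, a nucleotide exchange factor, 0.27, both under 2-fold in RC4. Zfand2a, an arsenite-inducible regulator of the proteasome that was named for the size of its change, had 32.3, 62.1, 283 and 90.8 RPM (log2 0.98, 3.43 and 1.49). It was above NT in all 3 treated libraries.

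**Figure D4:**
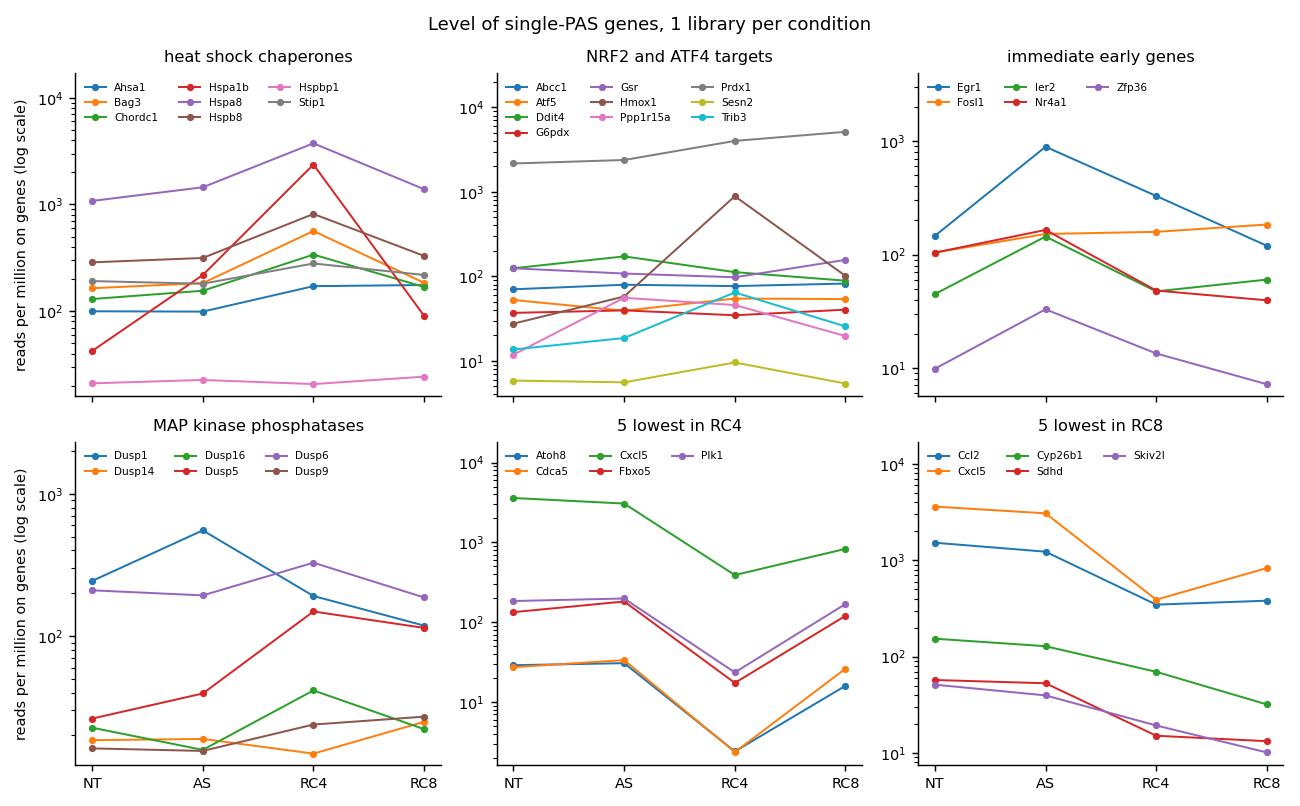
Level (y axis, RPM on genes, log scale) of single-PAS genes in NT, AS, RC4 and RC8 (x axis, 1 library each, lines only join the libraries) for heat shock chaperones, NRF2 and ATF4 targets, immediate early genes, MAP kinase phosphatases and the 5 lowest genes in RC4 and in RC8. Heat shock chaperones other than Ahsa1 and Hspbp1 peak in RC4 (Hspa1b at 2369) and immediate early genes other than Fosl1 in AS (Egr1 at 893), while Plk1, Fbxo5 and Cdca5 drop in RC4 and are near their NT level in RC8.

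Targets of NRF2, the transcription factor of the antioxidant response, differed among themselves. Of 5 single-PAS genes on this list, 1 was at least 2-fold up in AS and 2 each in RC4 and RC8, and none was 2-fold down. Hmox1, heme oxygenase 1, had 27.6, 57.8, 888 and 101 RPM, a 39.6-fold rise at 4 h relative to the median gene (log2 5.31). Prdx1, a peroxiredoxin that reduces peroxides, had 2165, 2380, 4005 and 5133 RPM and was highest in RC8 (log2 0.18, 1.19 and 1.24). Without centring on the median gene its RC4 change was 0.88 and thus under 2-fold. Gsr, glutathione reductase, G6pdx, which supplies NADPH, and Abcc1, an exporter of glutathione conjugates, stayed within log2 changes of -0.17 to 0.42 in all 3 comparisons.

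Among 5 targets of ATF4, the effector of the integrated stress response, 1 was past 2-fold in AS and 2 in RC4. Ppp1r15a (GADD34), which directs dephosphorylation of eIF2α, had 11.9, 55.7, 45.8 and 19.7 RPM and was up to nearly the same extent in AS and RC4 (log2 2.27 and 2.25). Trib3, a pseudokinase induced by ATF4 and CHOP, was high only in RC4, at 64.5 RPM against 13.6 in NT, 18.6 in AS and 25.5 in RC8 (log2 2.54 in RC4). Ddit4, an inhibitor of mTORC1, had log2 changes of 0.51, 0.15 and -0.49, Atf5 of -0.38, 0.36 and 0.03, and Sesn2, which restrains mTORC1, of -0.03, 0.82 and -0.32.

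Among single-PAS genes, the immediate early genes were the list with the highest median in AS. All 5 single-PAS members were above the median gene in AS, 3 of them at least 2-fold, with a list median of 1.73, while in RC8 the median was -0.30. The 9 multi-PAS genes of this list had a median of 0.27 in AS, with 3 at least 2-fold up. Egr1, a zinc finger transcription factor, had 146, 893, 329 and 119 RPM (log2 2.65, 1.47 and -0.30), the largest rise of a single-PAS gene in AS. Ier2 had 44.8, 144, 47.3 and 60.1 RPM and was 2-fold up only in AS (log2 1.73). Zfp36 (tristetraprolin), which binds AU-rich elements and promotes mRNA decay, had 9.83, 32.9, 13.4 and 7.18 RPM with the same single peak (log2 1.78). Fosl1, a partner of JUN in AP-1, had log2 changes of 0.58, 0.91 and 0.82. Nr4a1, an orphan nuclear receptor, had 104, 165, 48.1 and 39.5 RPM and lay below NT after the exposure (log2 0.71, -0.81 and -1.40). Csrnp1, a transcription factor named for its rise in AS, had 22.8, 87.8, 32.9 and 26.9 RPM (log2 1.98 in AS).

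The MAP kinase phosphatases, which switch off ERK, JNK and p38, differed among themselves: of 6 single-PAS genes, 1 was at least 2-fold up in AS, 2 were in RC4, and 1 was up and 1 down in RC8. Dusp1 had 244, 554, 191 and 118 RPM, a rise in AS (log2 1.22) and a level below NT in RC8 (-1.05). Dusp5, specific for nuclear ERK, had 26.3, 39.4, 149 and 114 RPM and was high in both recovery libraries (log2 0.63, 2.80 and 2.11). Dusp16, which acts on JNK, was past 2-fold only in RC4 (1.17, or 0.87 without centring on the median gene), and Dusp6 and Dusp9 reached 0.95 and 0.86 there. Dusp14 stayed near NT, between -0.01 and 0.42.

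Of the 6 single-PAS targets of p53, 4 were at least 2-fold up in RC4, with a median of 1.73 there, against 2 of 10 multi-PAS targets, with a median of -0.01. Mdm2, the ubiquitin ligase of p53, had 206, 187, 567 and 261 RPM (log2 1.76 in RC4). Gadd45a, a DNA damage-inducible regulator of growth arrest, had 9.43, 19.5, 31.9 and 9.96 (log2 1.09 in AS and 2.06 in RC4). Plk3 reached 1.87 in RC4 and 1.24 in RC8, and Trp53inp1 1.69 in RC4. The pro-apoptotic gene Bbc3 (PUMA) stayed between -0.11 and 0.32, and Sesn2, on this list as well, was given above. The lists are short, and whether single-PAS and multi-PAS targets differ was not tested.

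Other single-PAS genes with large rises included a transporter and secreted proteins. Slc20a1, a phosphate transporter, had 131, 155, 811 and 201 RPM and peaked in RC4 (log2 2.93). Mmp13, a collagenase, had 6.91, 5.70, 45.3 and 27.7 RPM and stayed up in RC8 (3.01 and 2.0). With 156 reads in NT and 1036 in RC4, Mmp13 reached the mean of 200 reads for naming only through a library where it was high. Cgref1, a secreted growth regulator, had 15.3, 14.5, 41.5 and 66.6 and rose on to RC8 (1.74 and 2.11). Serpinb9b, a granzyme inhibitor of the serpin family, and Tubb3, a β-tubulin of neurons, were the top 2 by RC8 change, at 3.06 and 2.5. They had 58 and 63 reads in NT, near the listing minimum of 50, and 493 and 364 in RC8. They thus also reached the mean of 200 reads for naming only through the library where they were high. Both had an empty read column in NT, and with it filled the RC8 changes were 2.06 and 1.5, and the RC4 changes 1.39 and 1.25 in place of 2.39 and 2.26.

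The 5 single-PAS genes with the lowest changes in AS included chromatin regulators and a scaffold gene. Kmt2d, a histone H3 lysine 4 methyltransferase, had 26.0, 6.68, 13.3 and 24.0 RPM (log2 -1.92 in AS and -0.12 in RC8). Hdac4, a class IIa histone deacetylase, had 42.3, 14.4, 35.2 and 42.6 and was low only in AS (-1.52). Mpdz, a scaffold with many PDZ domains, had 81.1, 28.8, 82.2 and 68.2 and was likewise low only in AS (-1.45). Bahcc1, with a BAH domain, and Zbtb37, a zinc finger gene with a 3′UTR of 7007 nt, were low in AS (-1.49 and -1.47) and also in RC4 (-1.90 and -1.32). In RC8 all 5 lay between -0.29 and 0.24.

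The 5 single-PAS genes with the lowest changes in RC4 included regulators of mitosis. Plk1, the polo-like kinase that drives mitotic entry and spindle assembly, had 184, 198, 23.5 and 169 RPM (log2 0.15, -2.67 and -0.13). Fbxo5 (EMI1), an inhibitor of the anaphase-promoting complex, had 134, 182, 17.3 and 120, with the same dip in RC4 (-2.65). Cdca5 (sororin), which holds sister chromatids together, had 27.3, 33.5, 2.36 and 26.2. Its log2 change in RC4 was -3.23, or -2.24 with an empty RC4 column filled. Thus all 3 were low in RC4 and near their NT level in RC8, while in AS Fbxo5 and Cdca5 were somewhat above NT (log2 0.48 and 0.33). Atoh8, a basic helix-loop-helix factor, had 28.9, 30.7, 2.40 and 16.0, with -3.29 in RC4, or -2.29 with an empty column filled. Cdca5 and Atoh8 had 54 and 55 reads in RC4, near the listing minimum of 50. Cxcl5, a neutrophil-attracting chemokine and one of the 5 most abundant single-PAS genes in NT, had 3601, 3067, 390 and 830 RPM and stayed low in RC8 (log2 -2.91 and -2.12).

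In RC8 the chemokine Ccl2, which attracts monocytes, was low as well, with 1519, 1227, 346 and 380 RPM (log2 -1.83 in RC4 and -2.0 in RC8). Skiv2l, the helicase that feeds RNA to the cytoplasmic exosome, had 51.2, 39.6, 19.3 and 10.1 RPM and was lower in each later library (-2.34 in RC8). Cyp26b1, which degrades retinoic acid, had 154, 128, 69.5 and 31.9 in the same order (-2.27). Sdhd, a membrane subunit of mitochondrial complex II, had 57.2, 52.9, 15.1 and 13.3 and was low in both recovery libraries (-1.62 and -2.12). The other 23 single-PAS genes of oxidative phosphorylation were all less than 2-fold away from NT in each comparison.

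The gene lists gave the following by group. All 5 single-PAS genes of cholesterol synthesis were at least 2-fold below NT in RC8, with a median of -1.18, and 6 of 15 multi-PAS genes of the list, with a median of -0.97. Acat2, which makes acetoacetyl-CoA, had 566, 587, 297 and 195 RPM (log2 -1.54 in RC8). Fdps, which makes farnesyl diphosphate, had 170, 205, 159 and 71.8 and was the single-PAS gene of the list with the highest RC4 change (0.20). None of the 12 nucleoporin genes was above the median gene in RC4, where the median was -0.68 and 3 were past 2-fold down, against a median of 0.01 for 9 multi-PAS nucleoporins. Nup107, of the Y complex that shapes the pore, had 206, 188, 53.1 and 102 RPM (-1.66), while Nup188, of the inner ring, was at the level of the median gene. Of 8 replication licensing genes 1 was 2-fold down in RC4: Gmnn (geminin), which blocks relicensing, had 73.8, 76.9, 26.3 and 89.8 RPM (-1.19). Mcm4, of the replicative helicase, had 0.21.

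**Figure D5:**
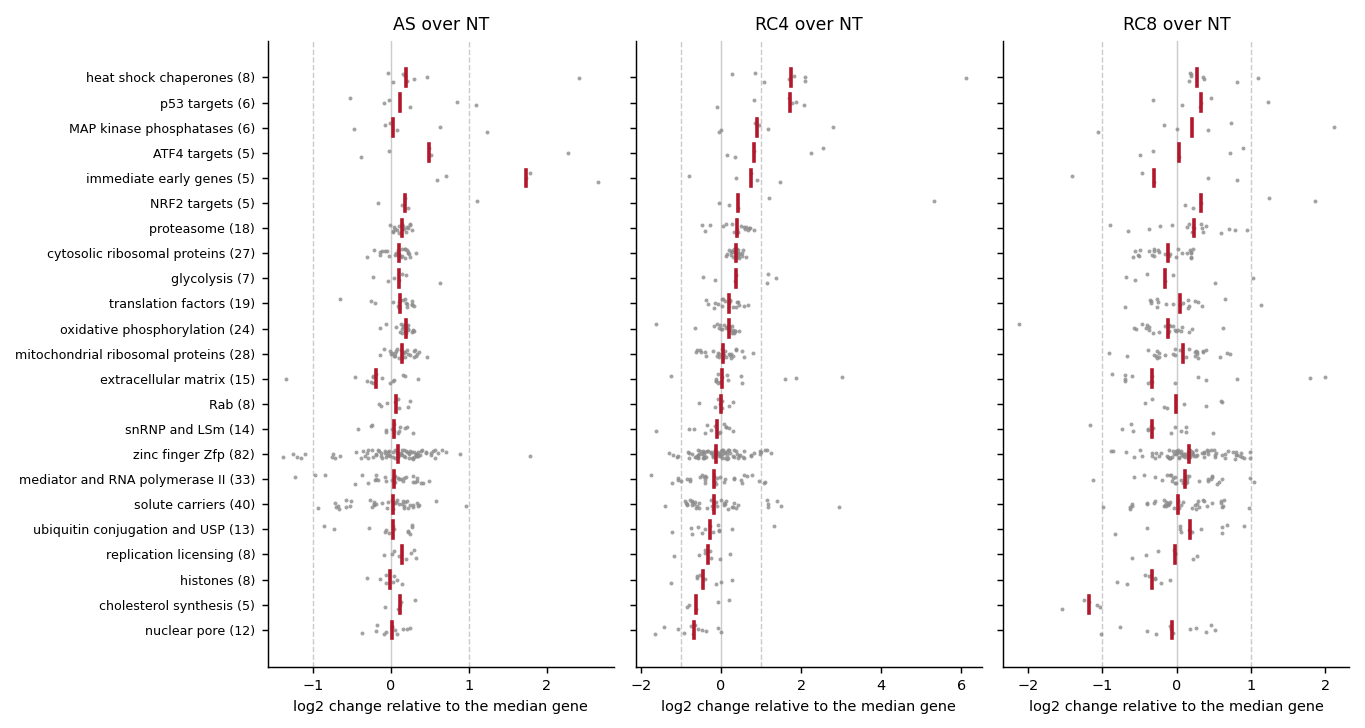
Log2 change over NT relative to the median gene (x axis) of each single-PAS gene (grey points) in the gene lists with at least 5 such genes (y axis, number of single-PAS genes in parentheses, ordered by RC4 median), with red bars at list medians and dashed lines at 2-fold. Heat shock chaperones (median 1.75) and p53 targets (1.73) stand highest in RC4, nucleoporins (-0.68) lowest, and all 5 cholesterol synthesis genes are past 2-fold down in RC8.

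Large housekeeping groups moved little. All 27 single-PAS genes of cytosolic ribosomal proteins were above the median gene in RC4, by 0.11 (Rpl22l1) to 0.63 (Rpl10a, whose 3′ end has a near-identical copy), with a median of 0.38, and none was past 2-fold in any comparison. The median gene itself fell by 0.30 in RC4 on the RPM scale, so Rpl22l1 was above the median gene but below its NT level in RPM (617, 648, 542 and 502). The 18 proteasome genes had medians of 0.14, 0.41 and 0.23 with none past 2-fold, and ran in RC4 from -0.47 for the assembly chaperone gene Psmg2 to 0.83 for the β-subunit gene Psmb3. The 28 genes of mitochondrial ribosomal proteins had medians of 0.14, 0.05 and 0.09, with Mrps12 lowest (-0.63) and Mrpl47 highest (0.80) in RC4. Among 19 translation factors, 1 was past 2-fold in RC8 and none in AS or RC4, where Eef1g had 0.56 and Eif4a3, of the exon junction complex, -0.37.

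In the snRNP and LSm list, Lsm2, of the ring that binds U6 snRNA and capped decay intermediates, had 167, 167, 44.4 and 112 RPM and was the single gene of 14 past 2-fold down in RC4 (-1.61), while Lsm4 was at 0.31. In RC4, 6.38% of all genes were 2-fold up and 6.38% down, and the lists were not tested against these shares. Of 33 genes of mediator and RNA polymerase II, 5 were 2-fold down and 2 up in RC4, from Taf2, a TFIID subunit, at -1.74 to Med10 at 1.08 (0.78 without centring). Of 40 solute carriers, 6 were 2-fold up and 1 down in RC4: the mitochondrial carrier Slc25a16 had -1.40. Of 15 extracellular matrix genes, 3 were up and 1 down in RC4: the adhesive glycoprotein Thbs1 had 528, 436, 179 and 422 RPM (-1.26). Of the 82 zinc finger genes named Zfp, 1 was up and 5 down in AS, and 4 up and 4 down in RC4, from Zfp65 at 1.25 (0.95 without centring) to Zfp763 at -0.82 among those with 200 reads or more. Of all genes, 0.718% were up and 2.93% down in AS.

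In glycolysis 3 of 7 were 2-fold up in RC4 (6.38% of all genes), Pfkp (phosphofructokinase, platelet type) reaching 1.37 and Pfkl (liver type) -0.16. Of 13 ubiquitin-conjugating enzymes and deubiquitinases, the deubiquitinase Usp27x was up (1.32) and the E2 enzyme Ube2t down (-1.22) in RC4. Among 8 histone genes the variant H2afy2 was down in RC4 (-1.25), and H3f3a, which has near-identical copies, was at 0.26. The chaperonin subunits Cct4 and Cct5 were at 0.46 and 0.51, Cox7a2l, a factor of respiratory supercomplexes, at 0.45, and the small GTPases Rab24 and Rab28 at 0.20 and -0.54. Both metallothioneins in all tables were multi-PAS genes, so no single-PAS gene was on that list.

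The most abundant single-PAS genes in NT kept most of their level in AS. S100a4, a calcium-binding protein of fibroblasts, had 10272, 10867, 8089 and 5715 RPM and was lowest in RC8 (-0.85). Tuba1b, an α-tubulin, had 5478, 6638, 4410 and 4187 (0.32, -0.01 and -0.39). S100a6 had 3951, 4198, 3749 and 3841 and stayed within -0.05 to 0.22. Among the fibroblast markers, Vim had 1784, 1955, 1764 and 1432 RPM and Pdgfrb, a receptor for platelet-derived growth factor, 150, 144, 33.1 and 59.5 (-1.88 in RC4 and -1.34 in RC8). The reads listed under Wdr89, with 6214, 7245, 7294 and 6952, were those that cannot be separated from Rplp2. Over the 94 genes named by rule, the counting error of a log2 change had a median of 0.06 and was 0.27 at most.

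Promoters were searched for the motifs of 3 stress responses on both strands, in RefSeq sequences (GRCm38.p6) from 250 nt before to 50 nt after each gene start, counting a gene once if any of its promoters matched. The heat shock element GAANNTTC was present in 9.04% of all 27025 genes with a sequence, the antioxidant response element TGACNNNGC in 14.0% and the cyclic AMP response element TGACGTCA in 2.03%. For the 2656 single-PAS genes with a sequence the shares were 6.74, 16.2 and 3.69%, and for 3815 multi-PAS genes 6.55, 17.7 and 4.33%. At least 4-fold up in RC4 were 29 of 3413 single-PAS genes and 99 of all 10081 genes. At least 4-fold down were 22 and 46 of the same sets, with no read minimum and empty columns not filled. Of the 29 single-PAS genes up, 18 had a sequence. The heat shock element was found in 3 of them (Bag3, Hspa1b and Slc20a1), the antioxidant response element in 4 (Dusp5, Ppp1r15a, Slc20a1 and Tmem179) and the cyclic AMP response element in 2 (Ppp1r15a and Zfand2a). Of the 22 single-PAS genes at least 4-fold down in RC4, 16 had a sequence, and 1 (Mypop) held the antioxidant response element and none the other motifs. A match describes letters and not a bound site, and the numbers are too small to set against the shares of all genes.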

How the data were processed

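Reads of 4 QuantSeq FWD libraries, 1 per condition, were trimmed by the authors, mapped to mm9 with STAR 2.5.2a and assigned to PolyA_DB PASs with MAAPER, for genes with at least 50 reads and with a threshold of 5% on the proportion of a PAS. Another 4 QuantSeq REV libraries were not analysed here. The authors deposited, per comparison with NT, raw read counts per gene in 2 columns per library and, per PAS, the fraction of the gene's reads. The p-values and log2 scores of APA in these files are the authors' own comparisons and were not used.

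Here the 2 columns were summed, scaled to RPM (22.4 to 23.0 M reads on genes per library) and centred on the median gene of each table, without a pseudocount. The NT fraction summed over the tables gave the most used PAS among those of the 3′-most exon. Intervals are Wilson intervals for shares and order-statistic intervals for medians.

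The members, gene lists and thresholds were chosen with earlier results of these data known. Named were the 5 highest and 5 lowest changes per comparison and, for each list outside the stress responses, the highest and lowest in RC4, all among genes with a mean of at least 200 reads, plus the 5 most abundant genes in NT and all members of the 7 stress lists. Some genes that this rule names are not reported here. Vim, Pdgfrb, Ifrd1, Mir1938, Snord37, Eef2, Acat2, Tmem179, Mypop and the genes past 2-fold in both directions were chosen after their values were seen. Gene structure and sequence came from GENCODE vM1 on the NCBIM37 (mm9) genome, and copies were searched with BLAST 2.17.0. The computation ran in Python 3.11.15 (pandas 2.3.3, scipy 1.17.1) and, for alternative scalings, edgeR 4.0.16 and DESeq2 1.42.0, and was tested on simulated data. Alternatives changed the scaling, the read minimum, the read columns, the fold, the hexamer window and the choice of genes.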

Additional observations from a re-analysis of the deposited data

Results flagged for a closer look

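Of 3413 single-PAS genes, 5 were at least 2-fold above NT in 1 comparison and 2-fold below it in another, and 4 of these had a mean of 200 reads or more in each comparison. The same count is not given for all genes, so these 5 have no background share beside them and are not read as a trait of single-PAS genes. All comparisons share the NT library, and the difference between them was not tested. Dusp1, a MAP kinase phosphatase, had log2 changes of 1.22 in AS and -1.05 in RC8. Ubb, a polyubiquitin gene, had 722, 920, 1391 and 341 RPM, with log2 changes of 1.25 in RC4 and -1.09 in RC8. Gm1821 had 1.09 in RC4 and -1.27 in RC8. Its 3′ end is near-identical to that of Ubb, so these may be the same transcripts. Syne1 (nesprin-1), which links the nucleus to actin, had 39.4, 18.8, 63.8 and 38.4 RPM, with log2 changes of -1.02 in AS and 1.00 in RC4. Without centring on the median gene, the RC4 changes of Ubb, Gm1821 and Syne1 were 0.94, 0.79 and 0.70 and thus under 2-fold, while both changes of Dusp1 stayed past it (1.18 and -1.04).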

How the results depend on the processing

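No paired analysis was possible because each condition has 1 library, and none of the values has a test. Of 84 changes past 2-fold in 58 of the genes named by rule, 5 were under 2-fold under an alternative, each without centring in RC4 (Ahsa1 0.78, Dusp16 0.87, Med10 0.78, Prdx1 0.88 and Zfp65 0.95), and none changed sign. Scaling by DESeq2 size factors equals the median gene here, and edgeR TMM differed from it by at most 0.014.

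Without centring, single-PAS medians were -0.0048 in AS, a change of sign, and -0.39 in RC4, with 98 genes up and 592 down in RC4, and multi-PAS medians were -0.0892 and -0.31, with 160 up and 602 down in RC4. At 1.5-fold, single-PAS genes up and down numbered 73 and 258 (AS), 453 and 737 (RC4) and 466 and 379 (RC8 libraries), and multi-PAS genes 42 and 603, 681 and 805, and 397 and 601. With a mean of 200 reads or more the AS median of single-PAS genes was 0.0508. With the number of PASs taken from each table alone, 39 single-PAS and 19 multi-PAS genes were up in AS, and multi-PAS genes had 134 up and a median of -0.0246 in RC8. With single-exon genes added, single-PAS medians were -0.0305 in RC4 and 0.0286 in RC8. Multi-PAS genes with all PASs in the 3′-most exon had medians of -0.0602, -0.0333 and -0.0235. Those with exactly 2 PASs had medians of 0.0011, -0.0287 and -0.0222 over the 3 comparisons, with 4 up and 73 down (AS), 137 and 154 (RC4) and 57 and 86 (RC8 cells). In a 30-nt window AATAAA was found at 55.2% of single PASs and 40.5% of the most used multi-PAS sites.

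Filling empty read columns, and leaving out genes with copies or small-RNA names, were chosen after seeing the data and kept the medians and counts of both groups, where run, within the limits set for the other alternatives. Single-PAS genes have fewer reads than multi-PAS genes, and with 1 library per condition the culture-to-culture spread is unknown.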
